A study of Mus musculus with 16 samples.

Results

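The genes described here make up the calcium store and release machinery of the cardiac muscle cell. They were chosen by name as 10 rows of a table of 55492 genes, and all 10 passed the filter on low values (a mean of at least 10 normalized counts over all libraries). The members were the calcium pump Atp2a2 and its inhibitor Pln, the release channel Ryr2 and its stabiliser Fkbp1b, the junctional proteins Trdn, Asph and Jph2, the calcium-binding proteins Casq2 and Hrc of the lumen, and the sodium-calcium exchanger Slc8a1. RNA from the left ventricle of 16 male C57BL/6 mice, 8 to 12 weeks old, was sequenced, with 1 mouse per library. The 6 groups were PKM2fl/fl hearts at baseline (n = 2), after sham surgery (n = 3) and after myocardial infarction (MI, n = 3), and PKM2-/- hearts at baseline (n = 2), after sham surgery (n = 3) and after MI (n = 3). MI was made by tying the left anterior descending coronary artery, and operated hearts were taken on day 3. PKM2-/- mice lack exon 10 of Pkm, the exon specific to the PKM2 isoform, in every tissue. The deletion was made by crossing the floxed line to CMV-Cre mice and breeding the Cre out, so the loss is not limited to cardiomyocytes, and the PKM2fl/fl controls carry the undeleted floxed exon.

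In a heart muscle cell, calcium entering through the L-type channel opens ryanodine receptors on the sarcoplasmic reticulum, and the released calcium starts contraction. The SERCA2 pump, encoded by Atp2a2, then returns calcium to the store under the brake of phospholamban (Pln), while the sodium-calcium exchanger carries the remainder out of the cell. Lower SERCA2 relative to its partners is a known feature of the failing heart.

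Libraries held 20623769 to 71855101 reads on genes, and loci related to ribosomal RNA took 15.8% to 46.3% of them. The 10 genes together took 1.69% to 2.26% of the reads outside those loci at baseline and after sham, and 0.498% to 1.17% after MI. One library stood apart from its group. PKM2fl/fl MI replicate 3 had a summed level of 10 sarcomere genes of 180165 normalized counts, against 405539 and 432535 in the other PKM2fl/fl MI hearts, and 6236 normalized counts of the myeloid gene Itgam against 1621 and 2449. Calls of the 10 genes that changed without it are given with and without it, and its effect on the size of MI differences is given below. Of the tissue markers, all 10 sarcomere genes were detected in every group, and the atrial light chain Myl7 ranged from 9.73 to 405 normalized counts. The mean sum of 5 atrial genes was 2950 (PKM2fl/fl) and 1884 (PKM2-/-) at baseline, 4954 and 5493 after sham, and 9573 and 11122 after MI. Among these genes Nppa was higher after MI than after sham (log2 differences of 1.28 and 1.33). Whether atrial tissue was present was not tested. The Pkm row counts both isoforms and so does not show whether exon 10 was lost. It was at 8662 ± 837 normalized counts in PKM2fl/fl sham and 13050 ± 1272 in PKM2-/- sham hearts (SD, n = 3 each, adjusted p = 0.174).

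The sequence just before the start of transcription is shown for 3 genes that were lower after MI (Pln, Casq2, Hrc) and for the 1 that was higher (Fkbp1b), so that genes that moved together can be set beside the gene that moved the other way. RefSeq promoter sequences of build GRCm38.p6, the build of the deposited counts, were at hand for 7 of the 10 genes, with 8 promoters in all. Each line gives the 250 bases before the start site, 5′ to 3′ on the gene's strand. Capitals mark matches to 5 motifs searched on both strands at any position: the MEF2 site, the CArG box, the hexamer TATAAA, an E-box (CAGCTG) and a GATA motif (AGATAA).
Pln: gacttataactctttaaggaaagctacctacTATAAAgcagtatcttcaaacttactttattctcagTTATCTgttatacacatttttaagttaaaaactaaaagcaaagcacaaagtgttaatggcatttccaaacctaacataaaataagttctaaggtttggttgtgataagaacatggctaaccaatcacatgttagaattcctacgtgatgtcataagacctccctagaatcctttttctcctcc
Casq2: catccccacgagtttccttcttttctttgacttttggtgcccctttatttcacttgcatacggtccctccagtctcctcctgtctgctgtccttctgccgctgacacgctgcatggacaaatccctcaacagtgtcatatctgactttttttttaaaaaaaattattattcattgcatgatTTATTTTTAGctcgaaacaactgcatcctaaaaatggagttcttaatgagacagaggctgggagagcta
Hrc: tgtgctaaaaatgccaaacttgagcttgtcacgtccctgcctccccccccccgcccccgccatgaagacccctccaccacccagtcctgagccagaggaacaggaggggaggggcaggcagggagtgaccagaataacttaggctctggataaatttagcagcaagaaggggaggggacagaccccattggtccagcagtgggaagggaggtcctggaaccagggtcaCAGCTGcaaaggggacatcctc
Fkbp1b: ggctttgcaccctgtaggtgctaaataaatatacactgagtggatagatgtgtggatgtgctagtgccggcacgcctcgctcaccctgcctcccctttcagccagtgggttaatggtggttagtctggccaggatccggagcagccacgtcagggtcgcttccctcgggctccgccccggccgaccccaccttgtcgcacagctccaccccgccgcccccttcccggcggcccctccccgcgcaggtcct

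The Pln stretch lies at chr10:53337436-53337685 on the forward strand, and it holds TATAAA at bases 219 to 214 before the start and AGATAA, read on the other strand, at bases 183 to 178. The Casq2 stretch, chr3:102086165-102086414 on the forward strand, holds a MEF2 site 69 to 60 bases before the start. Hrc, at chr7:45335019-45335268 on the forward strand, has CAGCTG 22 to 17 bases before it, and Fkbp1b, at chr12:4841574-4841823 on the reverse strand, has none of these motifs. Over all 32851 promoters cut to the same length, a MEF2 site was found in 2.92%, TATAAA in 12.4%, AGATAA in 9.99%, CAGCTG in 13% and a CArG box in 1.47%. Among the 8 promoters of the calcium handling genes, 1 had a MEF2 site, 1 had TATAAA, 2 had AGATAA (Pln and Slc8a1), 3 had CAGCTG (1 of Hrc and both of Jph2) and none a CArG box.

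The genes differed widely in level before any injury. Per kilobase of exon in PKM2fl/fl sham hearts, Atp2a2 was at 17677 ± 433 normalized counts and Pln at 16427 ± 1131 (SD, n = 3), and their ranges overlapped. Hrc followed at 4554 ± 228, Ryr2 at 3252 ± 346, Casq2 at 2541 ± 182 and Slc8a1 at 1623 ± 104 normalized counts per kilobase, each in a range of its own. Jph2 (1408 ± 98.6) and Trdn (1214 ± 139) overlapped, Asph was at 352 ± 21.5, and Fkbp1b was far below the others at 25.9 ± 6.23 normalized counts per kilobase. The exon lengths came from a newer annotation than that of the counts and join all transcripts, so the order between genes is approximate. By RefSeq on GRCm38.p6, the genes span 3705 bases (Hrc, chr7:45335269-45338973) to 553847 bases (Ryr2, chr13:11553099-12106945) and lie on 9 chromosomes, Pln (chr10:53337686-53345999) and Trdn (chr10:33083483-33476709) sharing 1. In the newer annotation, exons of other genes on the opposite strand overlapped 45.9% of the Pln exon length and 30.3% of that of Atp2a2. Since counting is not stated to use strand, reads of those neighbours cannot be told apart from reads of Pln and Atp2a2. Hrc, Casq2, Jph2 and Fkbp1b had no such overlap.

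**Figure D1:**
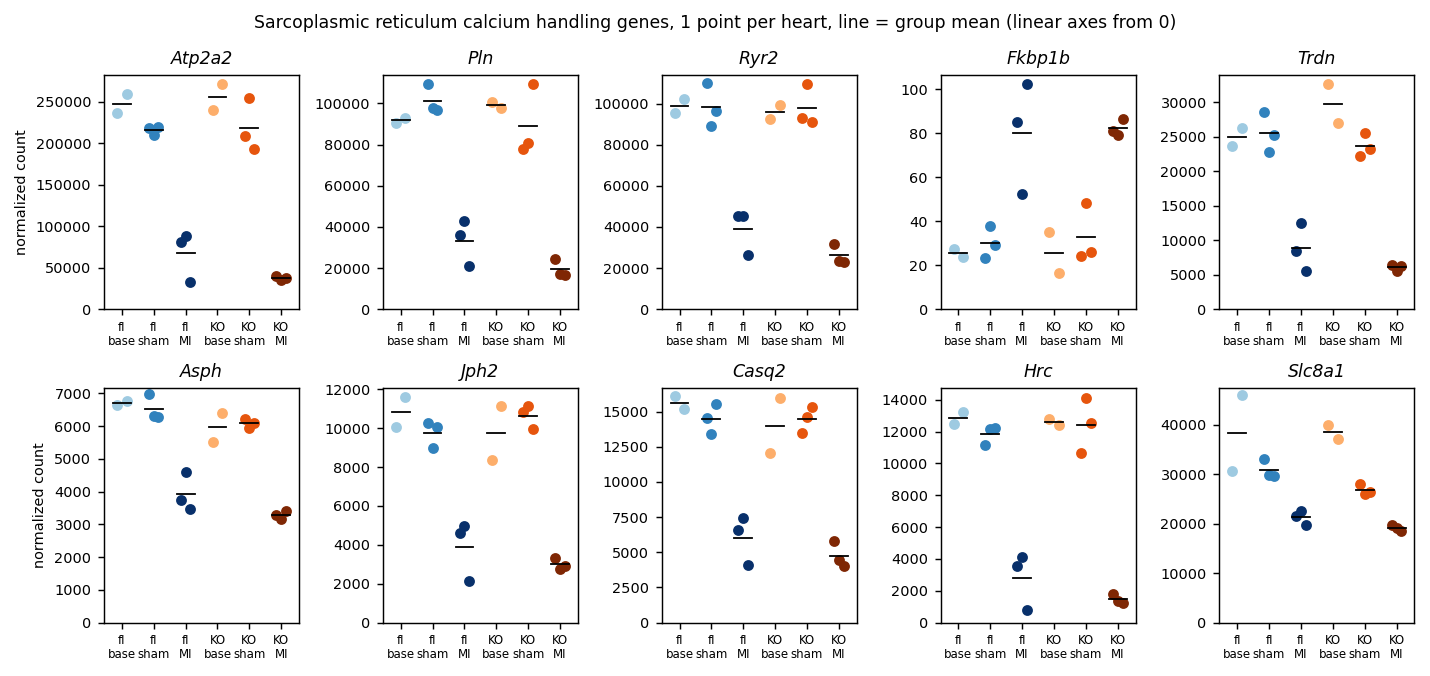
Normalized counts of the 10 calcium handling genes (y axes, linear and starting at 0) in each heart (points) by group (x axis, fl for PKM2fl/fl and KO for PKM2-/-), with the group mean as a line. In 9 panels the MI points lie below the sham points of the same genotype, and in the Fkbp1b panel they lie above, between 52.5 and 102 normalized counts.

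MI against sham asked what an infarct does to these transcripts. On the deposited scale 9 of the 10 genes fell and Fkbp1b rose in both genotypes, but relative to sarcomere genes Asph and Slc8a1 were called higher after MI, as most genes were, and Hrc was the 1 member called lower in both genotypes, by less in PKM2fl/fl hearts without replicate 3. By limma with adjustment over 20576 genes, 9 genes were lower and 1 higher in each genotype. Among all genes tested in PKM2fl/fl hearts, 25.3% were called lower and 24.8% higher, and in PKM2-/- hearts 28.1% and 28.7%. With a change of at least 2-fold as well, 7 of the 10 were lower and 1 higher in each genotype, where 11.1% and 12.4% of all genes were in PKM2fl/fl and 14.3% and 14.5% in PKM2-/- hearts. The median log2 difference of the 10 genes was -1.39 in PKM2fl/fl and -1.87 in PKM2-/- hearts, against -0.0025 and 0.010 over all genes tested. Without PKM2fl/fl MI replicate 3, all 10 were still called in PKM2fl/fl hearts, with 8909 of 20576 genes called, but each difference was smaller. Atp2a2 was then 2.55-fold lower instead of 3.49-fold, and Pln 2.58-fold instead of 3.17-fold. Trdn was 2.47-fold lower instead of 3.03-fold, and Jph2 2.04-fold instead of 2.67-fold.

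The pump and its inhibitor fell together. Atp2a2, which refills the store, was at 236795 and 259351 normalized counts in the PKM2fl/fl baseline hearts, at 218722, 210269 and 220038 after sham, and at 81144, 88610 and 33144 after MI. In PKM2-/- hearts it was at 240457 and 271194 at baseline, at 209145, 255348 and 192836 after sham, and at 39502, 35488 and 37365 after MI. Every MI heart was below every heart of the sham and baseline groups. The log2 difference between MI and sham was -1.80 ± 0.33 in PKM2fl/fl (SE, 3.49-fold lower, adjusted p = 0.000325) and -2.54 ± 0.33 in PKM2-/- hearts (5.81-fold lower, adjusted p = 1.11e-05).

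Pln, whose product slows the pump until it is phosphorylated, was at 109248, 97878 and 96584 normalized counts in PKM2fl/fl sham hearts and at 35909, 42743 and 21046 after MI. In PKM2-/- hearts it was at 77657, 80650 and 109412 after sham and at 24489, 17146 and 16582 after MI. The baseline hearts held 90682 and 93105 (PKM2fl/fl) and 100809 and 98010 (PKM2-/-). No MI heart reached the lowest sham heart. The log2 difference was -1.67 ± 0.25 in PKM2fl/fl (adjusted p = 6.74e-05) and -2.21 ± 0.25 in PKM2-/- hearts (adjusted p = 3.72e-06). Within each heart, Pln per 100 Atp2a2 counts was 46.8 ± 3.03 after sham and 52 ± 10.2 after MI in PKM2fl/fl, and 41.8 ± 13.2 and 51.6 ± 9.25 in PKM2-/- hearts (SD, n = 3 each). Those ranges overlapped in both genotypes.

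The release channel fell as its stabiliser rose. Ryr2, the calcium release channel of the sarcoplasmic reticulum, was at 109792, 89135 and 96521 normalized counts in PKM2fl/fl sham hearts and at 45529, 45452 and 26338 after MI, a log2 difference of -1.37 ± 0.23 (adjusted p = 0.000170). In PKM2-/- hearts it was at 93187, 109636 and 91289 after sham and at 31914, 23662 and 22846 after MI, a log2 difference of -1.92 ± 0.23 (adjusted p = 5.99e-06). Baseline hearts lay within 92358 to 102026. Fkbp1b encodes FKBP12.6, which binds the channel and steadies its closed state. It was at 23.5, 38 and 29.4 normalized counts in PKM2fl/fl sham hearts and at 85, 52.5 and 102 after MI, and at 24.1, 48.3 and 25.9 in PKM2-/- sham hearts and 81.1, 79.4 and 86.6 after MI. All 6 MI hearts were above the 10 others, which held 16.5 to 48.3. The log2 difference was 1.34 ± 0.34 in PKM2fl/fl (2.54-fold, adjusted p = 0.00399) and 1.37 ± 0.34 in PKM2-/- hearts (2.59-fold, adjusted p = 0.00293). Its values rest on 9 to 125 reads per library, so single hearts carry more counting error than for any other gene of the set.

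Among the junctional proteins, Trdn and Jph2 followed Ryr2 and Asph fell less. Triadin (Trdn) anchors calsequestrin to the release channel, and it ranged over 22727 to 28548 normalized counts in PKM2fl/fl sham and 5575 to 12558 in MI hearts, and over 22245 to 25476 and 5588 to 6347 in PKM2-/- hearts. Junctophilin 2 (Jph2), which ties the sarcoplasmic reticulum to the T-tubule, ranged over 8986 to 10255 and 2148 to 4955 in PKM2fl/fl, and over 9942 to 11140 and 2763 to 3324 in PKM2-/- sham and MI hearts. Asph, whose gene gives junctin as well as an aspartyl hydroxylase that other cell types make, ranged over 6273 to 6978 and 3477 to 4589 in PKM2fl/fl, and over 5950 to 6204 and 3162 to 3397 in PKM2-/- hearts. None of these ranges overlapped between sham and MI. The log2 differences in PKM2fl/fl and PKM2-/- hearts were -1.60 and -1.97 for Trdn, -1.42 and -1.83 for Jph2 and -0.73 and -0.89 for Asph, with SEs of 0.10 to 0.23 and adjusted p from 2.41e-06 to 0.000126.

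In the lumen, Hrc fell more than Casq2. Hrc encodes the histidine-rich calcium-binding protein, which touches both triadin and the pump. It was at 11164, 12178 and 12202 normalized counts in PKM2fl/fl sham hearts and at 3568, 4114 and 787 after MI, and at 10628, 14080 and 12535 in PKM2-/- sham hearts and 1787, 1353 and 1239 after MI. The lowest value of all came from PKM2fl/fl MI replicate 3. The log2 difference was -2.39 ± 0.41 in PKM2fl/fl (5.24-fold lower, adjusted p = 0.000214), or -1.63 ± 0.14 (3.09-fold lower, adjusted p = 9.19e-07) without that heart, and -3.10 ± 0.41 in PKM2-/- hearts (8.55-fold lower, adjusted p = 1.50e-05). Casq2, the main calcium buffer of the store, ranged over 13438 to 15513 in PKM2fl/fl sham and 4062 to 7451 in MI hearts, and over 13464 to 15347 and 4025 to 5773 in PKM2-/- hearts. Its log2 differences were -1.31 ± 0.19 (adjusted p = 5.66e-05) and -1.62 ± 0.19 (adjusted p = 5.62e-06).

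Slc8a1, the exchanger that removes calcium across the cell membrane, moved least. It was at 33106, 29774 and 29586 normalized counts in PKM2fl/fl sham hearts and at 21587, 22546 and 19707 after MI, and at 28037, 26074 and 26367 in PKM2-/- sham hearts and 19697, 19229 and 18561 after MI. The MI hearts of each genotype still lay below its sham hearts. The log2 difference was -0.53 ± 0.15 in PKM2fl/fl (1.45-fold lower, adjusted p = 0.00736) and -0.49 ± 0.15 in PKM2-/- hearts (1.40-fold lower, adjusted p = 0.0115). Scaling by library totals, with or without the loci related to ribosomal RNA, ended this call (adjusted p of 0.145 and 0.102 in PKM2fl/fl, 0.958 and 0.582 in PKM2-/- hearts), and its log2 difference in PKM2-/- hearts turned to 0.028 under scaling to all counts. Asph in PKM2-/- hearts also lost its call under scaling to all counts (adjusted p = 0.334).

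Markers of several cell types moved with these differences. The sum of the 10 sarcomere genes ranged over 922772 to 1055860 normalized counts in PKM2fl/fl sham and 180165 to 432535 in MI hearts, and over 826284 to 994821 and 207279 to 307890 in PKM2-/- hearts. Of those 10 genes, 9 were lower after MI in PKM2fl/fl (Actc1 missed, adjusted p = 0.0578) and 10 in PKM2-/- hearts. All 6 macrophage and monocyte markers were higher in both genotypes, and their sum ranged over 4613 to 9122 in PKM2fl/fl sham, 19571 to 34998 in PKM2fl/fl MI, 5980 to 7742 in PKM2-/- sham and 25783 to 30174 in PKM2-/- MI hearts. Of 5 fibroblast markers, 4 were higher and 1 lower in each genotype. Of the other markers tested, in PKM2fl/fl and PKM2-/- hearts, 1 of 3 neutrophil genes was higher in each, 2 and 1 of 4 endothelial, 3 and 2 of 4 smooth muscle and 1 and 1 of 4 atrial genes were higher, 1 endothelial and 1 smooth muscle gene were lower in PKM2-/- hearts, and none of 3 erythroid genes passed. In whole ventricle, fewer cardiomyocytes and less RNA per cardiomyocyte cannot be told apart, and the part of cell makeup in the results was not tested.

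Across hearts the median of the 9 falling genes lay near the sarcomere level, while single genes spread around it. The median was 45.6%, 49.2% and 22% of the sham mean in the PKM2fl/fl MI hearts, where the sarcomere sum was at 44.3%, 41.6% and 18.5%. In the PKM2-/- MI hearts the median was 31.2%, 24.1% and 26.3%, and the sarcomere sum was at 33.1%, 23% and 22.3%. Among the MI hearts Slc8a1 was at 63.9% to 73.4% of the sham mean, Asph at 52% to 70.4% and Hrc at 6.64% to 34.7%, so Slc8a1 and Asph lay above the sarcomere level and Hrc below it in each. The heart with the lowest sarcomere sum was also the one with the lowest median of the 9 genes.

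**Figure D2:**
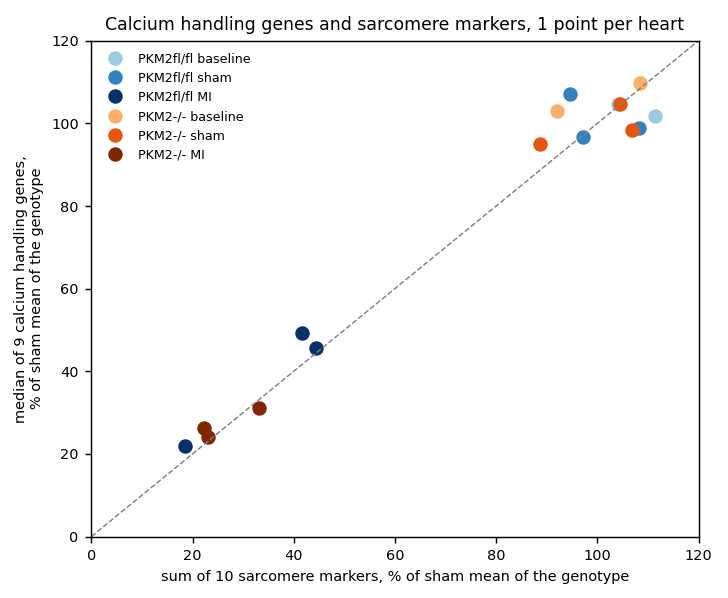
Median of the 9 calcium handling genes other than Fkbp1b (y axis) against the sum of 10 sarcomere genes (x axis), both as a percentage of the sham mean of the same genotype, with 1 point per heart, colour for the group and a dashed line of equality. The 6 MI hearts lie at 18.5% to 44.3% on the x axis and 22% to 49.2% on the y axis, near the line.

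Each library was also rescaled to its summed sarcomere markers. A single factor per library moves all genes by nearly the same log2 amount, so it shifts the zero line and hardly changes the spread between members. This scaling moved the median of all genes tested to 1.60 (log2, PKM2fl/fl) and 1.94 (PKM2-/-), so nearly everything outside the sarcomere rose on it. Of the 10 genes, 1 was then lower and 3 higher in PKM2fl/fl, with 0.437% and 82.6% of all genes, and 2 were lower and 3 higher in PKM2-/- hearts, with 0.885% and 86.3%. Hrc remained lower in both (-0.77 ± 0.26, adjusted p = 0.00978, and -1.14 ± 0.26, adjusted p = 0.000344). Without PKM2fl/fl MI replicate 3, a choice made after seeing the data, the PKM2fl/fl difference of Hrc was -0.41 ± 0.16 (adjusted p = 0.0233), Asph was at 0.57 and Slc8a1 at 0.74, and again 1 member was lower and 3 were higher, with 0.549% and 75.7% of all genes and a median of all genes of 1.19. Atp2a2 was lower in PKM2-/- hearts (-0.58 ± 0.21, adjusted p = 0.0144), and in PKM2fl/fl its difference was -0.18 (95% interval -0.62 to 0.26). Pln, Trdn, Jph2, Ryr2 and Casq2 passed in neither genotype, with differences of -0.25 to 0.34. Asph (0.89 and 1.06), Slc8a1 (1.09 and 1.47) and Fkbp1b (2.93 and 3.29) were higher relative to the sarcomere genes, as were most genes. The values of Asph and Slc8a1 were still below the median of all genes, a place that the shift hardly changes. The share of all calls that were higher was 49.5% and 50.5% in PKM2fl/fl and PKM2-/- hearts on the deposited scale, 39.4% and 79.2% under scaling to all counts, 61% and 72.1% under scaling without loci related to ribosomal RNA, and 99.5% and 99% under this scaling.

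**Figure D3:**
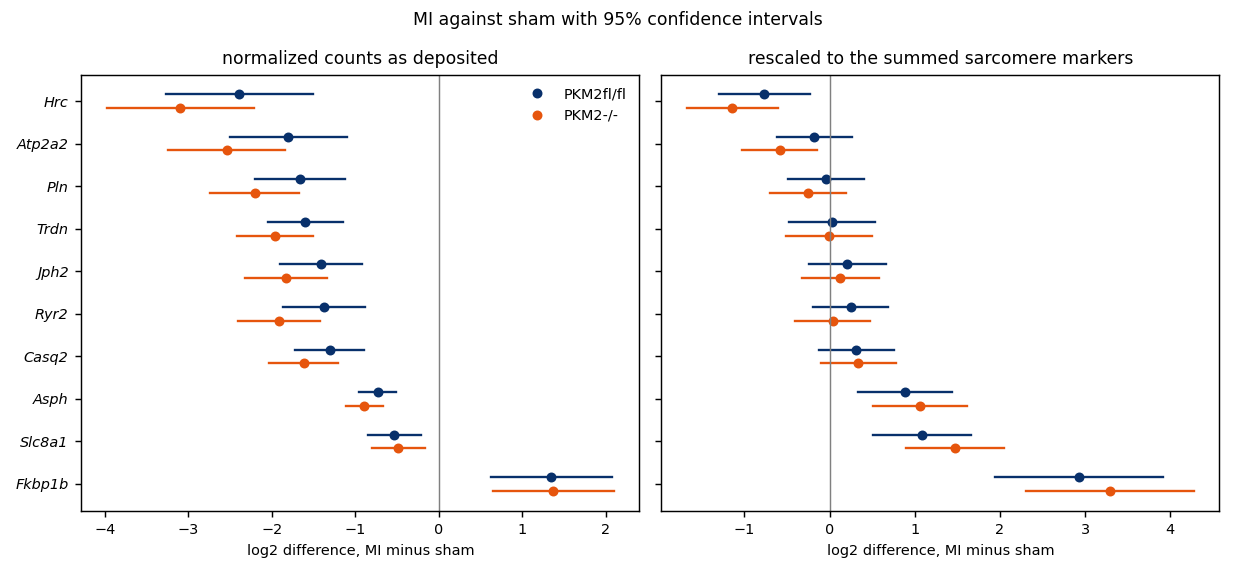
Log2 difference between MI and sham (x axes) for each of the 10 genes (y axis), with 95% confidence intervals, for PKM2fl/fl (blue) and PKM2-/- hearts (orange), on the deposited scale (left) and after rescaling to the sarcomere markers (right). On the left 9 genes lie below 0, from -3.10 to -0.49, and on the right Hrc lies below 0 in both genotypes, while Asph and Slc8a1 change sign and lie above it.

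Ratios taken within a heart do not depend on how libraries were scaled. They were chosen with the values of these genes known and are given without a test. The part of cell makeup in these ratios was not tested either. Slc8a1 per 100 Atp2a2 counts was 15.1, 14.2 and 13.4 in PKM2fl/fl sham hearts and 26.6, 25.4 and 59.5 after MI, and it was 13.4, 10.2 and 13.7 in PKM2-/- sham hearts and 49.9, 54.2 and 49.7 after MI. All 6 MI hearts held more Slc8a1 transcript per Atp2a2 transcript than the sham hearts of their genotype, with group means 2.61-fold and 4.12-fold higher. Without PKM2fl/fl MI replicate 3, the 2 other PKM2fl/fl MI hearts lay at 25.4 and 26.6. Hrc per 100 Casq2 counts was 76.6, 90.6 and 78.7 in PKM2fl/fl sham hearts and 54, 55.2 and 19.4 after MI, and 78.9, 96.4 and 81.7 in PKM2-/- sham hearts and 30.9, 30.3 and 30.8 after MI. The ranges of sham and MI hearts did not overlap in either genotype. Asph per 100 Ryr2 counts ranged over 6.36 to 7.08 and 8.25 to 13.2 in PKM2fl/fl sham and MI hearts, and over 5.43 to 6.67 and 10.3 to 14.9 in PKM2-/- hearts. Fkbp1b per 1000 Ryr2 counts ranged over 0.214 to 0.426 and 1.16 to 3.89 in PKM2fl/fl, and over 0.259 to 0.441 and 2.54 to 3.79 in PKM2-/- hearts.

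Other ratios differed less between sham and MI hearts. Casq2 per 100 Ryr2 counts was 14.8 ± 1.41 after sham and 15.4 ± 0.938 after MI in PKM2fl/fl, and 14.9 ± 1.78 and 18.2 ± 0.634 in PKM2-/- hearts (SD, n = 3 each), with no overlap in the latter. Jph2 per 100 Ryr2 counts was 9.95 ± 0.555 and 9.71 ± 1.41 in PKM2fl/fl, and 10.9 ± 0.744 and 11.6 ± 1.17 in PKM2-/- hearts. Trdn per 100 Ryr2 counts was 25.9 ± 0.340 and 22.4 ± 4.69 in PKM2fl/fl, and 24.2 ± 1.15 and 23.6 ± 3.68 in PKM2-/- hearts.

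**Figure D4:**
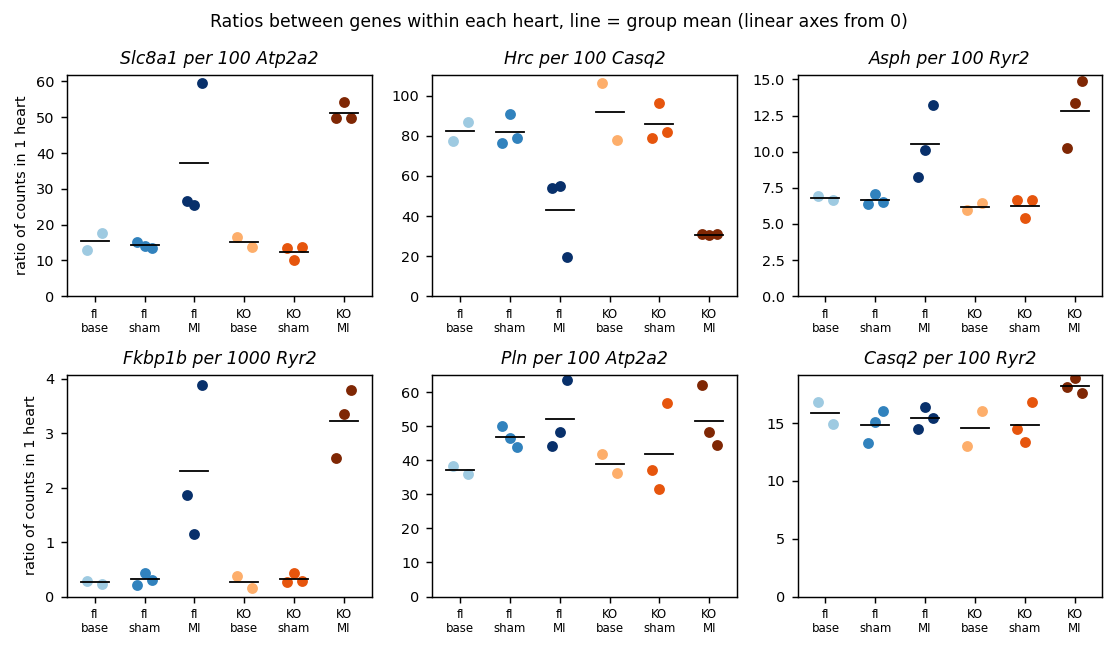
Ratios of counts between genes within each heart (y axes, linear and starting at 0), with 1 point per heart by group (x axis, fl for PKM2fl/fl and KO for PKM2-/-) and the group mean as a line. Slc8a1 against Atp2a2, Asph against Ryr2 and Fkbp1b against Ryr2 are higher in all 6 MI hearts than in the sham hearts of their genotype, Hrc against Casq2 is lower in all 6, and Pln against Atp2a2 overlaps.

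PKM2-/- against PKM2fl/fl hearts asked whether loss of PKM2 moved these genes. Before infarction no difference was detected. At baseline (2 against 2 hearts) none of the 10 was called, by limma, DESeq2 or edgeR, and none had an unadjusted p under 0.05 in any of the 3. By limma 0.00972% of all genes were called and 3.64% had an unadjusted p under 0.05. DESeq2 called 11 of 27148 genes tested and edgeR 1 of 23161. The limma log2 differences of the 10 were -0.17 to 0.25, with 95% intervals such as -0.81 to 0.90 for Atp2a2. After sham surgery (3 against 3) again none was called or had an unadjusted p under 0.05 by any of the 3 tools. By limma 0.00972% of all genes were called and 9.95% had an unadjusted p under 0.05. DESeq2 called 266 of 20291 genes tested and edgeR 2 of 23161. The limma differences of the 10 were -0.20 (Slc8a1) to 0.12 (Jph2).

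After MI the values of PKM2-/- hearts were lower for several genes, and whether they passed depended on the tool, on the weighting of libraries and on 1 library. None of the 10 was called by limma (0.967% of all genes) or edgeR (0.596%), but 3 were by DESeq2 (Atp2a2, Pln and Ryr2, with 5.48% of all genes). At an unadjusted p under 0.05 there were 5 by limma, all lower in PKM2-/- hearts, where 17% of all genes had such a p, and 6 by DESeq2 and by edgeR, where 19% and 16.3% of the genes each tested had. The limma log2 differences of these 5 were -0.74 ± 0.25 for Pln (adjusted p = 0.153), -0.73 ± 0.33 for Atp2a2 (adjusted p = 0.275), -0.55 ± 0.23 for Ryr2 (adjusted p = 0.239), -0.47 ± 0.21 for Trdn (adjusted p = 0.275) and -0.26 ± 0.10 for Asph (adjusted p = 0.228). Atp2a2 shows the overlap: the PKM2-/- MI hearts at 35488 to 39502 normalized counts lay between PKM2fl/fl MI replicate 3 at 33144 and the others at 81144 and 88610.

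Without PKM2fl/fl MI replicate 3, 8 of the 10 were lower in PKM2-/- than in PKM2fl/fl MI hearts (3 against 2), with 11% of all genes called, and the 2 that were not were Slc8a1 and Fkbp1b. Hrc then differed by -1.41 ± 0.14 (adjusted p = 6.02e-05), Atp2a2 by -1.18 ± 0.21 (adjusted p = 0.00246) and Pln by -1.04 ± 0.20 (adjusted p = 0.00431). Weighting libraries by their fit instead of leaving one out also gave 8 calls, with 9.91% of all genes, and this heart had the lowest weight of the 16. The sarcomere sum was 207279 to 307890 in PKM2-/- MI hearts, below PKM2fl/fl MI replicates 1 and 2 at 432535 and 405539. With PKM2fl/fl MI replicate 3, at 180165, the ranges overlapped. Relative to the sarcomere markers, with all libraries, none of the 10 was called (0.0729% of all genes), and their differences of -0.34 to 0.49 had a median of 0.0087 against 0.40 for all genes. The members were below the median of all genes on the deposited scale too (-0.39 against -0.0035). A single factor per library shifts all genes nearly alike, so the 2 scales are not separate evidence of this. Relative to the sarcomere markers without PKM2fl/fl MI replicate 3, Hrc was lower in PKM2-/- hearts (-0.60 ± 0.16, adjusted p = 0.00341) and Fkbp1b, Asph and Slc8a1 were higher (1.10, 0.47 and 0.60), with 62.5% of all genes called and medians of 0.088 for the 10 and 0.80 for all genes.

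The difference of the MI effect between genotypes was not called for any of the 10 genes by limma, DESeq2 or edgeR, with 0%, 0.32% and 0% of all genes called. At an unadjusted p under 0.05 there were 0 members by limma, with 8.28% of all genes, 2 by DESeq2 (9.31%) and 1 by edgeR (8.06%). The log2 differences were -0.74 ± 0.46 for Atp2a2, -0.71 ± 0.58 for Hrc, -0.55 ± 0.33 for Ryr2 and -0.54 ± 0.36 for Pln, and 0.027 and 0.050 for Fkbp1b and Slc8a1. Without PKM2fl/fl MI replicate 3, 3 members were called (2.35% of all genes). These were Hrc (-1.47 ± 0.19, adjusted p = 0.00303), Jph2 (-0.80 ± 0.17, adjusted p = 0.0264) and Atp2a2 (-1.19 ± 0.28, adjusted p = 0.0387).

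Sham against baseline asked what surgery alone did. None of the 10 was called by limma in PKM2fl/fl (0.19% of all genes) or PKM2-/- hearts (5.14%). At an unadjusted p under 0.05 there were 0 in PKM2fl/fl (8.81% of all genes) and 1 in PKM2-/- hearts (18.9%). DESeq2 called 0 and 1 (1.6% and 6.62% of all genes) and had 1 and 1 at that unadjusted p (9.41% and 17.6%). By edgeR 0 and 0 were called (0.112% and 3.19%), with 0 and 1 at that unadjusted p (8.91% and 16.5%). In PKM2-/- hearts the gene was Slc8a1, at 39907 and 37241 normalized counts at baseline and 26074 to 28037 after sham, a log2 difference of -0.52 ± 0.17 (adjusted p = 0.0858 by limma, 0.0461 without PKM2fl/fl MI replicate 3 and 0.00725 by DESeq2). In PKM2fl/fl hearts 1 of its baseline values, 30706 and 46121, lay within the sham range of 29586 to 33106, and the difference was -0.29 ± 0.17 (adjusted p = 0.710).

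Of 48 further calcium handling genes listed by role, 45 were tested. In PKM2fl/fl hearts 17 were lower and 9 higher after MI, and in PKM2-/- hearts 18 and 11, beside the same shares of all genes as above. With a 2-fold change, 13 were lower in each genotype and 1 and 3 higher. Their median log2 difference was -0.24 and -0.33. Relative to the sarcomere markers, a scale on which 82.6% and 86.3% of all genes were higher, 1 was lower and 31 higher in PKM2fl/fl and 0 and 33 in PKM2-/- hearts, of 45 tested. On that scale 0 of 10 phosphorylation control genes were lower and 4 and 5 higher, and all 10 release channel genes were higher. Counts by role below are on the deposited scale, where 25.3% (PKM2fl/fl) and 28.1% (PKM2-/-) of all genes were lower and 24.8% and 28.7% higher.

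Among 7 pumps and small pump regulators, 3 were lower and none higher in each genotype. Strit1, whose peptide relieves the pump from phospholamban, was at 246 to 451 normalized counts in PKM2fl/fl sham and 12.8 to 78.8 in MI hearts, a log2 difference of -2.81 ± 0.51 (adjusted p = 0.000296), and its difference was -2.27 ± 0.51 (adjusted p = 0.00131) in PKM2-/- hearts. S100a1, a calcium sensor that stimulates pump and channel, differed by -1.70 and -1.53 (adjusted p = 9.49e-05 and 0.000175). Mrln, which encodes myoregulin, was lower in PKM2fl/fl (-1.72 ± 0.63, adjusted p = 0.0332), at 0.915 to 17.5 normalized counts, and differed by -0.32 in PKM2-/- hearts (adjusted p = 0.688). The other pump genes were low: Atp2a1 of fast skeletal muscle did not pass in either genotype (0.078 and -0.47), and Atp2a3 passed in PKM2-/- hearts (-0.20 and -0.44, adjusted p = 0.239 and 0.0144), the latter at 0.074 under scaling to all counts. Sln, the atrial pump inhibitor, spread from 9.27 to 220 normalized counts among operated hearts and did not pass (-1.17 ± 1.14 and -0.81 ± 1.14).

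Among 10 release channels and their partners, none was lower and 4 higher in PKM2fl/fl, and 1 was lower and 5 higher in PKM2-/- hearts. Fkbp1a, the close relative of Fkbp1b found in most cells, differed by 0.56 ± 0.098 and 0.89 ± 0.098. Itpr1, the inositol trisphosphate receptor, differed by 0.028 (adjusted p = 0.847) and -0.29 (adjusted p = 0.0336), and the latter turned above 0 under scaling to library totals (0.23, or 0.065 without loci related to ribosomal RNA). In the lumen Calr, the calcium buffer of the general endoplasmic reticulum, rose from 3853 ± 765 to 7183 ± 247 normalized counts in PKM2fl/fl and from 4010 ± 30.2 to 8188 ± 421 in PKM2-/- hearts (0.92 ± 0.12 and 1.03 ± 0.12, adjusted p = 2.49e-05 and 5.74e-06), while Srl, the muscle protein sarcalumenin, fell (-1.01 and -1.47, adjusted p = 0.000390 and 1.01e-05) and was higher relative to the sarcomere markers (0.61 and 0.49).

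At the junctions Tmem38a, a counter-ion channel of the store, differed by -1.62 and -2.01, Speg, a kinase of the junction, by -1.30 and -1.80, and Jph1 by -1.18 and -1.23, all with an adjusted p under 0.05. Bin1, which shapes T-tubules and is made by many cell types, was higher at 666 to 796 normalized counts in PKM2fl/fl MI against 247 to 344 in sham hearts, and at 800 to 913 against 311 to 432 in PKM2-/- hearts (1.28 ± 0.15 and 1.27 ± 0.15, adjusted p = 7.70e-06 and 5.01e-06). Jph3, a mainly neuronal junctophilin, passed in PKM2-/- hearts (0.29 and 1.32, adjusted p = 0.501 and 0.00364). At the cell membrane Cacna1c, the pore of the L-type calcium channel, fell in both genotypes (-1.48 and -1.73, adjusted p = 3.59e-05 and 5.97e-06). Atp2b2, a plasma membrane pump, was at 16.2 to 74 normalized counts and passed in PKM2-/- hearts (-0.55 and -1.65, adjusted p = 0.145 and 0.000241).

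Of 10 genes of phosphorylation control, 7 were lower and none higher in each genotype. They included Ppp1r3a, a targeting subunit of protein phosphatase 1 (-1.40 and -1.58), Pde4d, which breaks down cyclic AMP near the release channel (-1.45 and -1.61), Prkaca, a catalytic subunit of protein kinase A (-1.08 and -1.22), the anchoring protein Akap6 (-1.16 and -1.79) and the kinase Dmpk (-1.45 and -1.82). Camk2d, the main CaMKII gene of the heart, which phosphorylates Ryr2 and Pln proteins, did not pass (-0.095, adjusted p = 0.397, and -0.021, adjusted p = 0.861). Of 3 genes of store-operated entry, 2 were higher in each genotype: Orai1 (0.67 and 0.29) and Stim2 (0.58 and 0.34).

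**Figure D5:**
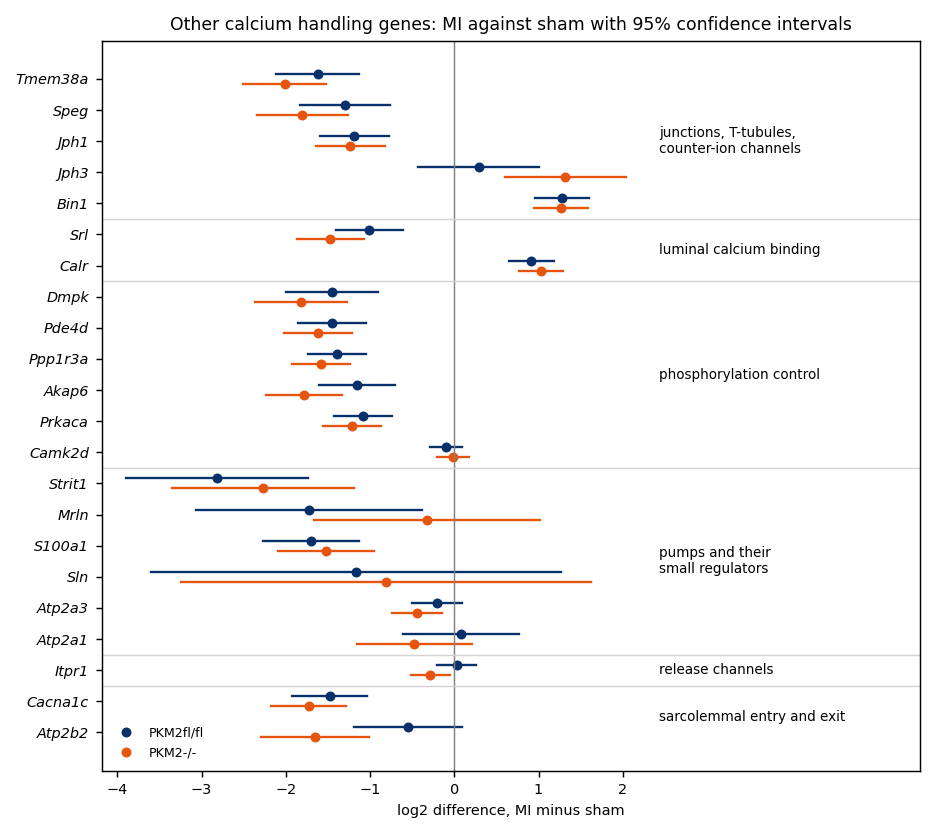
Log2 difference between MI and sham (x axis) with 95% confidence intervals for 22 other calcium handling genes (y axis) grouped by role, in PKM2fl/fl (blue) and PKM2-/- hearts (orange), on the deposited scale. Strit1 lies lowest in both genotypes (-2.81 and -2.27), and Bin1 and Calr lie above 0 in both.

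Across the 16 libraries the members moved as 1 group with 1 opposite. Each of the 9 falling genes correlated with the mean of the other members at r = 0.847 (Slc8a1) to 0.995 (Atp2a2), and Fkbp1b at r = -0.918. Among the 8 genes whose log2 levels were most like the mean standardised level of the 10 were Usp13, Gm4814, Ivd, Fyco1, Ogdh, Acad12 and Cmya5, with r from 0.996 to 0.998 over 16 libraries. These values mainly set 6 MI hearts against 10 others, which share that contrast.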

How the data were processed

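Total RNA of left ventricle was depleted of ribosomal RNA and sequenced as read pairs. Per the study's methods, the authors trimmed reads with PRINSEQ, aligned them with HISAT2 to mm10, counted them per gene with featureCounts and normalized them with DESeq2. Strand and multi-mapping settings are not given in the sources used here. The deposited values are a signal, normalized counts: reads divided by 1 size factor per library, with no pooling of replicates. Whole reads were recovered from them, within 0.1 of a read, for 100% of values. The deposited table also holds the authors' own baseline comparison (log2 fold changes with their SE, a Wald score, a p-value and a q-value per gene), which was not used.

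The main test was limma 3.58.1 with a mean-variance trend in R 4.3.3 on log2(value + 1), so that fold changes of low genes are understated. All 16 libraries entered 1 fit of 6 groups, without a block, over 20576 genes with a mean of at least 10. P-values are two-sided and Benjamini-Hochberg adjusted over these genes, and a call is an adjusted p under 0.05. DESeq2 1.42.0 and edgeR 4.0.16 (quasi-likelihood) on the recovered reads were alternatives, with others of pseudocount (0.1), filter (none or a mean of 50), scaling, samples and weights. Scripts were tested on simulated data. Named are the 10 genes, 22 of 48 listed calcium handling genes (at most 20 called with a 2-fold change in MI against sham in either genotype, and 8 always named), the 8 genes most correlated with the members, and Pkm. Orai1, Stim2, Fkbp1a, Actc1 and Ppp1ca were named after their values were seen. The members and lists were chosen with earlier results of these data known. Some genes that the rule names are not reported here. No pair of libraries was identical. Exon lengths and overlaps came from GENCODE M39, and gene spans and promoters from RefSeq on GRCm38.p6.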

Additional observations from a re-analysis of the deposited data

How the results depend on the processing

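In MI against sham, all 10 genes passed in both genotypes under a pseudocount of 0.1, no filter, TMM scaling, DESeq2, edgeR, quality weights, a fit of the compared groups alone and each library left out. A mean of at least 50 removed Fkbp1b and left 9 and 9 in PKM2fl/fl and PKM2-/- hearts, scaling to all counts left 9 and 8, and scaling without loci related to ribosomal RNA 9 and 9. These 2 scalings moved the median log2 difference of all genes to -0.18 and 0.52, and to 0.13 and 0.36. Scaling to sarcomere markers gave 4 and 5 calls, but Asph and Slc8a1 had turned to higher in both genotypes. On that scale 82.6% and 86.3% of all genes were called higher. Without PKM2fl/fl MI replicate 3, a choice added after seeing the data, it gave 4 calls in PKM2fl/fl, Asph and Slc8a1 again higher. That choice gave 4 genotype calls after MI, with 62.5% of all genes called. After MI, genotype calls were 0, against 3 by DESeq2, 8 with quality weights and 0 to 8 with 1 library left out, and the cause was not tested. The range was 0 to 1 for sham against baseline in PKM2-/- hearts (1 by DESeq2) and 0 to 3 for the difference of the MI effect. The fit with a replicate block kept 10 calls in each MI comparison and 0 elsewhere. The numbers did not pair the libraries (36 correlations of deviations of -0.20 to 0.13, 1 over 0.1).

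For the further calcium handling genes, leaving out 1 library gave 16 to 18 lower and 8 to 10 higher in PKM2fl/fl, and 17 to 19 and 9 to 12 in PKM2-/- hearts. Higher calls in PKM2fl/fl were 1 under scaling to all counts. With a 2-fold change they were 1 and 3. Scaling to sarcomere markers gave 1 lower and 31 higher, and 0 and 33.

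That scaling turned these log2 differences above 0, counting only genes called on the deposited scale or on the sarcomere scale. In PKM2fl/fl hearts they were 0.25 (Ryr2), 0.025 (Trdn), 0.89 (Asph), 0.21 (Jph2), 0.31 (Casq2), 1.09 (Slc8a1), 0.23 (Ppp1r3a), 0.17 (Pde4d), 0.14 (Cacna1c), 0.0024 (Tmem38a), 0.54 (Prkaca), 0.44 (Jph1), 0.17 (Dmpk), 0.47 (Akap6), 0.61 (Srl), 0.32 (Speg), 1.02 (Atp2b2), 1.41 (Atp2a3) and 1.53 (Camk2d). In PKM2-/- hearts they were 0.038 (Ryr2), 1.06 (Asph), 0.13 (Jph2), 0.34 (Casq2), 1.47 (Slc8a1), 0.38 (Ppp1r3a), 0.34 (Pde4d), 0.23 (Cacna1c), 0.74 (Prkaca), 0.43 (S100a1), 0.72 (Jph1), 0.13 (Dmpk), 0.17 (Akap6), 0.49 (Srl), 0.15 (Speg), 1.46 (Mrln), 0.25 (Atp2b2), 1.42 (Atp2a1), 1.51 (Atp2a3), 1.67 (Itpr1) and 1.94 (Camk2d). Under scaling to all counts, Slc8a1 (0.028), Atp2a3 (0.074) and Itpr1 (0.23) turned in PKM2-/- hearts, as did Itpr1 (0.065) without loci related to ribosomal RNA. Of single-gene values under all alternatives, 2189 of the 10 genes and 1166 of the further genes kept their call status, 12 and 32 turned, 24 and 4 gained a call and 8 and 22 lost one. A value was counted as turned only if it was called in the main fit or in the alternative. Changes of sign without a call in either were counted as kept.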

Other observations

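Sln, an inhibitor of the pump that is made mainly in the atrium, was high in the same hearts as the atrial light chain Myl7. The PKM2-/- sham hearts held 220, 88.8 and 22.7 normalized counts of Sln and 378, 226 and 69 of Myl7, and the PKM2fl/fl sham hearts 170, 28.7 and 208 of Sln and 401, 90.3 and 405 of Myl7. The part of atrial tissue in the Sln values was not tested.

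Ppp1ca, which encodes a catalytic subunit of protein phosphatase 1, was at 0 to 3.22 normalized counts in 14 libraries, on at most 4 reads. Whether the way reads were counted plays a part in these low values was not tested. Ppp1ca was at 288 and 238 in PKM2-/- baseline replicate 2 and PKM2-/- sham replicate 2, on 157 and 182 reads. It was named after its values were seen, and no difference between groups was called (adjusted p = 0.924 and 0.0940 for MI against sham in PKM2fl/fl and PKM2-/- hearts).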
